A study of Mus musculus with 12 samples.

Results

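Liver expression was compared between the high-fat and the standard diet in control mice, which are wild type, across 19938 genes measured on microarrays. The members are the 6 control arrays among the 12 of the series, 3 per diet, chosen by their titles. The mice were of the 129Sv strain, were killed at 12 weeks of age after a fast of 24 h, and gave total RNA of the whole liver. One group ate a standard diet, and the other was put on a Western diet with 42% fat at weaning. The other 6 arrays come from Sirt3 knockout mice, which have lost a mitochondrial deacetylase, on the same diets, and serve here for the spread and for a side comparison. The question put to the arrays was which liver genes respond to diet. Nothing in the labels says whether the arrays of a group came from separate litters or cages, so the p-values measure the spread between these samples.

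The liver makes cholesterol from acetyl units by the mevalonate pathway and then closes and trims the sterol rings. When membranes of the endoplasmic reticulum hold little sterol, the protein SREBP2 is cut and switches the genes of this pathway on; when sterol is plentiful, INSIG proteins hold it back and the LXR receptors raise the genes that export sterol and the lipogenic factor SREBP1c. Liver also desaturates, stores and exports fatty acids, turns cholesterol into bile acids and follows a circadian clock that is set by feeding.

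The labelled tissue was borne out by its defining markers. All 15 hepatocyte markers were measured, and their mean level was 13.3 to 13.4 on the standard diet and 13.2 to 13.3 on the high-fat diet, on the log2 scale of the deposited values. The labels do not give the sex; on all 6 control arrays Xist, the RNA of the inactive X chromosome, was at 4.31 to 4.80, and the Y-linked Eif2s3y was at 8.68 to 9.05. Sirt3, the gene targeted in the other mice, stood at 8.97, 9.04 and 9.13 on the control standard-diet arrays and at 9.29, 9.14 and 9.13 on the control high-fat arrays (difference 0.14, SE 0.108, limma adjusted p = 0.476). In the knockout it was at 8.83 to 8.95 on the standard diet and 8.49 to 8.92 on the high-fat diet, and where its probes lie relative to the deleted part is not given in the sources used here, so this signal checks no label. The deposited values carry marks of separate normalization runs for the diets: arrays of the same diet shared a median of 20 (standard) or 7 (high-fat) exactly equal values per pair, and arrays of different diets 0, with at most 1. Diet and run cannot be told apart, so large differences and whole pathways are given first. High-fat replicate 3 stood apart for immune genes: the mean of its MHC class II genes was 8.61 against 7.93 to 8.02 on the other high-fat arrays, and that of its macrophage markers 7.88 against 7.39 to 7.40.

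The largest rise and the largest fall among the called genes were those of Scd1 and Cyp17a1. Scd1, a stearoyl-CoA desaturase that yields monounsaturated fatty acids, was 10.4-fold higher on the high-fat diet, and the steroid hydroxylase Cyp17a1 was 6.55-fold lower. Limma called 1194 genes, 5.99% of those tested, at a Benjamini-Hochberg adjusted p under 0.05: 858 were higher (4.3%) and 336 lower (1.69%). Of these, 44 (0.221%) differed by at least 1 on the log2 scale, which is 2-fold, 28 of them higher (0.14%) and 16 lower (0.0802%). The 44 calls held without every single control array for 36 genes. Of the 1194 calls, 644 were under 0.5 in size and 269 held without every single control array. The median difference over all genes was 0.04 and the median SE 0.114. Among the 1246 olfactory, vomeronasal and taste receptor genes, which are dim (median level 4.23, against 6.70 over all genes), 11.2% were called, against 5.64% of the other genes, and 92.9% lay within 0.5 of 0. The balance of rises and falls rested on the scaling: 71.9% of calls were higher as deposited, 52.9% after quantile normalization of the 12 arrays and 40.7% after centring each array on its median. With the same steps the number of calls of at least 1 stayed at 43 and 42.

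**Figure D1:**
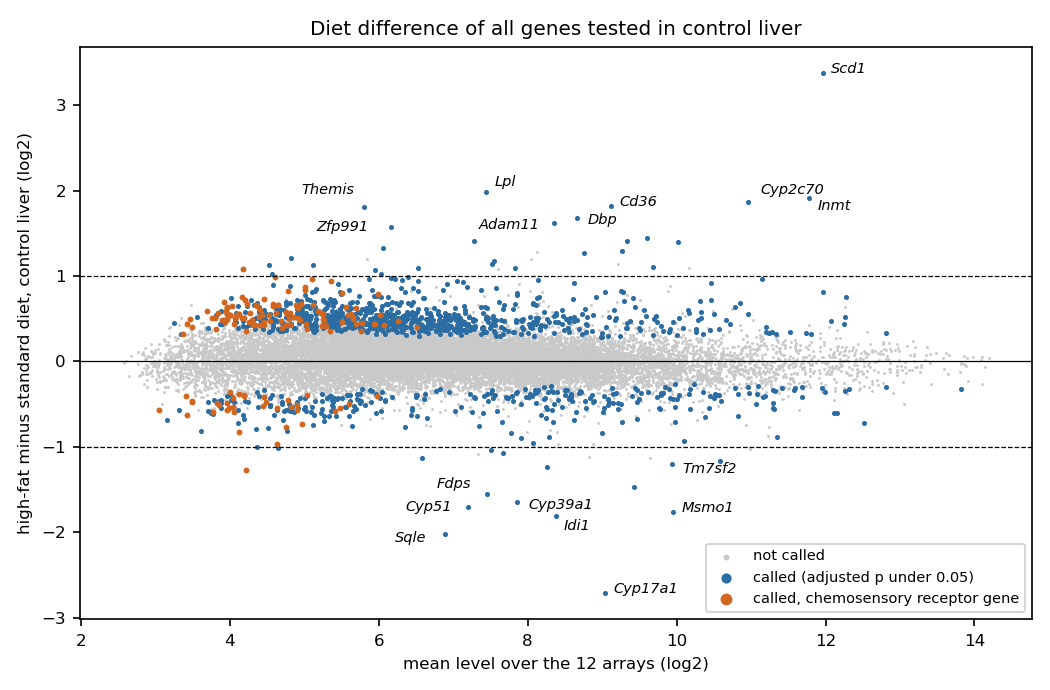
Difference between the diets (log2, y axis) against the mean level over the 12 arrays (log2, x axis) for each of 19938 genes; blue points were called, orange points are called chemosensory receptor genes and dashed lines mark a difference of 1. Scd1 (3.38) and Cyp17a1 (-2.71) stand farthest from 0, and most calls lie between the dashed lines.

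Transcripts of cholesterol synthesis fell on the high-fat diet, up to farnesyl diphosphate and, above all, in the steps that build the sterol rings. Of 11 measured genes of the ring steps, 6 fell and 0 rose, and all 11 had a value below 0. Their median difference was -0.95, against 0.04 over all genes, and groups did not overlap for 9 of the 11 (30.3% of all genes did not overlap, 10.9% in this direction). Of the 8 measured genes from mevalonate to squalene, 4 fell and 0 rose, with a median of -0.33. Among all genes 1.69% were called lower and 4.3% higher. The 6 calls of the ring steps held without every single control array. The 4 of the mevalonate steps numbered 2 or 3 when a control array was left out. When tested against a minimum difference of 0.5 (limma treat), 1 member of each list was called lower. With a variance added for the offset between diets, 0 were called in either list.

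Sqle, squalene epoxidase, makes the first oxygenated sterol precursor. It was at 8.33, 7.39 and 7.88 on the standard diet and at 5.92, 5.78 and 5.83 on the high-fat diet, 4.06-fold lower (-2.02, SE 0.289, limma adjusted p = 0.00211). All high-fat arrays lay within 0.2 of each other, while the standard-diet arrays spread over a wider range. Msmo1, which removes methyl groups from the ring, went from 11.39, 10.03 and 10.80 to 8.93, 9.11 and 8.89 (-1.77, SE 0.299, adjusted p = 0.0051). Cyp51, the lanosterol demethylase, went from 8.58, 7.71 and 8.15 to 6.71, 6.67 and 5.94 (-1.71, SE 0.284, adjusted p = 0.00475). In Sqle, Msmo1 and Cyp51 alike, standard-diet replicate 1 was the highest array and replicate 2 the lowest of its group, and each high-fat array lay below all of them. Tm7sf2, a sterol reductase, was 2.3-fold lower, at 10.72, 10.25 and 10.57 against 9.29, 9.41 and 9.22 (limma adjusted p = 0.000188). Nsdhl, a sterol dehydrogenase, was 2.1-fold lower (-1.07, SE 0.162). Dhcr7, which makes cholesterol from its last precursor, fell too (-0.95, SE 0.102); it is the remaining called member of the ring steps and was named after its values were seen. Hsd17b7, Lss, Ebp, Sc5d and Lbr were not called, with values from -0.33 to -0.10.

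Earlier in the pathway, Fdps, farnesyl diphosphate synthase, was at 8.48, 7.99 and 8.25 against 6.81, 6.63 and 6.61, 2.94-fold lower (-1.56, SE 0.162, limma adjusted p = 0.000201). Idi1, the isomerase that makes one of its substrates, was at 9.72, 9.44 and 9.37 against 7.59, 8.46 and 7.05, 3.5-fold lower (-1.81, SE 0.349, adjusted p = 0.00948). Its high-fat arrays were further apart than those of Fdps, and a second probe set of Idi1 gave -1.78. Hmgcs1, which makes the precursor of mevalonate, was at 9.82, 8.92 and 9.42 against 8.72, 8.81 and 8.11 (-0.84, SE 0.233, adjusted p = 0.0486), a gap that is small beside the spread of the standard-diet arrays. The call on Hmgcs1 held only without standard-diet replicate 2, with an adjusted p of up to 0.175 without the other control arrays, and that on the kinase Pmvk (-0.37) ended without each of the 6, with an adjusted p of up to 0.126. Mvd, Fdft1, Mvk and Ggps1 were not called, with values from -0.30 to 0.07.

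Promoters of some of the called cholesterol genes are shown because these genes moved together. SREBP2 is known to act beside the factor NF-Y, which binds the CCAAT box. The 200 bases before the RefSeq gene start were searched on both strands for CCAAT, which the opposite strand shows as ATTGG. A window was held for 16 of the 19 measured members of both lists, and all 16 contained the box, 8 called and 8 not called members alike, against 34.3% of 15614 measured genes with a window. The box therefore did not separate the members that fell from those that were not called. The 9-letter sterol element TCACNCCAC, searched in the same way, was in 1 of the 16, Hmgcs1, where it starts at position -137 from the gene start and shares no base with the boxes at -176 and -45, and in 0.98% of all windows. No match says only that these letters are not in this window. Sqle and Fdps are named without a promoter. Pmvk and Dhcr7 also have a window with the box, which is not printed. Windows are written in the direction of the gene, 5′ to 3′, on build GRCm38.p6, with the CCAAT box in capitals. They lie at chr13:8885406-8885605 (Idi1, plus strand), chr13:119690151-119690350 (Hmgcs1, plus), chr5:4104698-4104897 (Cyp51, minus), chr8:64733579-64733778 (Msmo1, minus), chr19:6067851-6068050 (Tm7sf2, minus) and chrX:72918321-72918520 (Nsdhl, plus).
Idi1: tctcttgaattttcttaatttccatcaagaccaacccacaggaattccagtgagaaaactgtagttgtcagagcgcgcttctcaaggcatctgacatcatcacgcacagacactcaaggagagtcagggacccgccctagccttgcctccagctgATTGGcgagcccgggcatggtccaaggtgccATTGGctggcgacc
Hmgcs1: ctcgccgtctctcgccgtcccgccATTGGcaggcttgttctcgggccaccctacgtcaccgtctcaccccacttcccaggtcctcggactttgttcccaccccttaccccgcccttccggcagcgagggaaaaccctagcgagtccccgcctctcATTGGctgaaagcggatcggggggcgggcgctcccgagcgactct
Cyp51: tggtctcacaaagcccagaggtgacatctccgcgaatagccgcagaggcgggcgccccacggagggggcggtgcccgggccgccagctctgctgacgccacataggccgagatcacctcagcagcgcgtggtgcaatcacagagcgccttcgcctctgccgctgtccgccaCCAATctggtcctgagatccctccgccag
Msmo1: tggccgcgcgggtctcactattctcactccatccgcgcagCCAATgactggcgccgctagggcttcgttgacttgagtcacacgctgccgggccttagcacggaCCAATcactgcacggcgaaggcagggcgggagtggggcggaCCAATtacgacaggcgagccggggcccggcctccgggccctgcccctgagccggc
Tm7sf2: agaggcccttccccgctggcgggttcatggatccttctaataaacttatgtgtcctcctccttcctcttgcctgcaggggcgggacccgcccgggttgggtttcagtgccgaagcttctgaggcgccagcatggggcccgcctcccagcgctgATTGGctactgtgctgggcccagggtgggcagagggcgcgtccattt
Nsdhl: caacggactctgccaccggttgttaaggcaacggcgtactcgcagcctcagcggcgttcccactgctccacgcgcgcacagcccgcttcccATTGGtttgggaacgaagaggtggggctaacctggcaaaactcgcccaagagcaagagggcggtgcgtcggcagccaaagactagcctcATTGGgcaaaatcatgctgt

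Msmo1 holds 3 boxes, Idi1, Hmgcs1 and Nsdhl hold 2 each, and Cyp51 and Tm7sf2 hold 1 each. Among the genes printed, the number of boxes did not follow the size of the fall: Cyp51 with 1 box stood at -1.71 and Nsdhl with 2 at -1.07.

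Among the genes that sense and take up sterol, 4 of 12 measured members fell and 1 rose (median -0.24). Of all genes, 1.69% were called lower and 4.3% higher. Srebf2, which encodes SREBP2, was at 8.77, 8.53 and 8.74 against 8.01, 8.22 and 8.20, 1.45-fold lower (-0.54, SE 0.0979, limma adjusted p = 0.00694). Srebf1, which encodes SREBP1, moved the other way: it was at 7.98, 7.94 and 8.09 against 9.35, 9.20 and 9.27, 2.41-fold higher (1.27, SE 0.14, adjusted p = 0.000274). Neither pair of groups overlapped. Insig1, the sterol-sensitive anchor of both factors, was 1.9-fold lower (-0.93, SE 0.182); without high-fat replicate 1 it was -0.79 with an adjusted p of 0.0565. Stard4, a sterol carrier, was called at -0.67, and the call ended without standard-diet replicate 1 (0.0617) or high-fat replicate 1 (0.0589). Tmem97, a sterol-regulated membrane protein, was called at -0.54, ended without each of the 6 control arrays (adjusted p up to 0.129), and had another probe set at -0.31. Insig2, Nr1h3 (LXR-alpha) and Scap were not called, at -0.45, -0.30 and -0.18.

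On the list of sterol and phospholipid export, 5 of 10 measured members rose and 0 fell, against 4.3% and 1.69% of all genes. The median was 0.29, and groups did not overlap for 6, all higher (19.4% of all genes). This list also holds genes that are not exporters, such as the transfer protein Pltp. Abcg5, one of the paired transporters that pass sterol into bile, was at 10.11, 9.75 and 10.18 against 11.04, 11.06 and 10.70, 1.89-fold higher (0.92, SE 0.139, limma adjusted p = 0.00289). Its partner Abcg8 was at 10.11, 9.83 and 10.31 against 10.68, 10.66 and 10.64 (0.58, SE 0.131, adjusted p = 0.0215). Both partners were higher on each high-fat array than on any standard-diet array, although the Abcg8 call held only without standard-diet replicate 3 or high-fat replicate 3 (adjusted p up to 0.0966 without the others). Abca1 and Abcg1, which pass cholesterol to high-density lipoprotein, rose by 0.57 (SE 0.0996, adjusted p = 0.00595) and 0.62 (SE 0.11, adjusted p = 0.00633). The phospholipid transfer protein Pltp was called at 0.33, and that call ended without each of the 6 control arrays (adjusted p up to 0.107). Without any one control array 3 or 4 members of the list were called, and 3 after median centring.

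**Figure D2:**
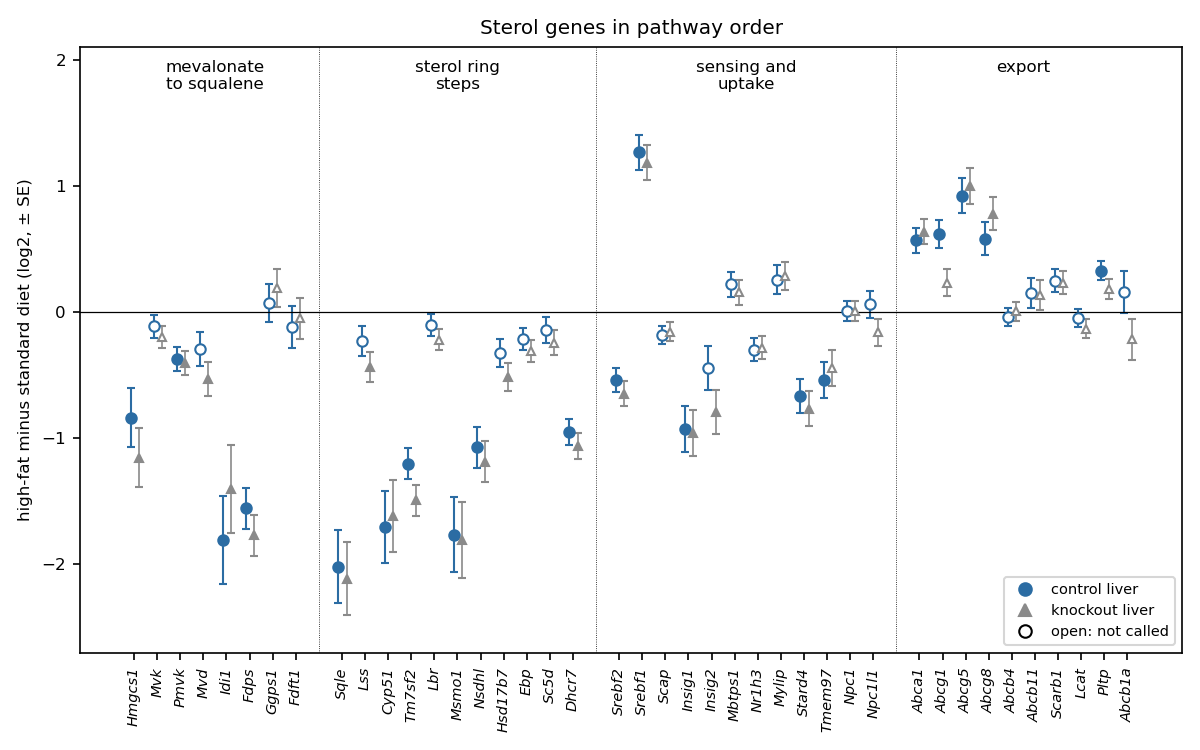
Difference between the diets (log2, y axis, with SE) for each measured sterol gene (x axis), in pathway order within 4 lists; blue circles are control liver, grey triangles knockout liver, and filled symbols were called. In control liver 10 of the 19 synthesis genes are filled and below 0, from -2.02 (Sqle) to -0.37 (Pmvk). The 5 filled members of the export list lie above 0.

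Fatty acid genes did not move as a block; a few members moved far. Scd1 was at 10.10, 9.13 and 10.18 on the standard diet and at 13.21, 13.11 and 13.22 on the high-fat diet (3.38, SE 0.217, limma adjusted p = 2.07e-06). The high-fat arrays nearly coincide, and standard-diet replicate 2 is the lowest; without it the difference was 3.04. Scd2, the desaturase best known from brain, was called at 0.74, and the call ended without standard-diet replicate 1 (0.0506) or 3 (0.0789) or high-fat replicate 3 (0.0599). Fads1, which desaturates polyunsaturated fatty acids, moved the other way: 11.77, 11.73 and 11.71 against 10.69, 10.91 and 10.95, 1.85-fold lower (-0.89, SE 0.0988, adjusted p = 0.00028). Of 18 desaturases and elongases 2 rose and 1 fell, and their median was 0.04, the same as over all genes. The falls depended on the scaling: 4 members were called lower after quantile normalization, 4 after cyclic loess and 3 after median centring, with 2 higher in each, and the median was -0.04 after median centring. Among 15 genes of fatty acid synthesis and its regulators 2 rose and 1 fell (median -0.09), against 4.3% of all genes called higher and 1.69% lower. Besides Srebf1, the riser was Mlxipl, the sugar-sensing factor ChREBP (0.47), whose call ended without each of the 6 control arrays (adjusted p up to 0.154). The one that fell was Acacb, the acetyl-CoA carboxylase at the mitochondrion whose product restrains fatty acid oxidation: 8.70, 8.83 and 8.69 against 7.95, 7.80 and 7.84, 1.84-fold lower (-0.88, SE 0.107, adjusted p = 0.000677). Fasn, the fatty acid synthase, was not called (-0.16, adjusted p = 0.476).

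Of 18 genes of lipid uptake and fatty acid binding 7 rose and 1 fell (median 0.17), against 4.3% and 1.69% of all genes. Lpl, the lipase that frees fatty acids from circulating triglyceride, was at 6.44, 6.75 and 6.64 against 8.80, 8.19 and 8.78, 3.95-fold higher (1.98, SE 0.203, limma adjusted p = 0.000188). Cd36, a fatty acid transporter, was at 8.07, 7.92 and 8.05 against 10.04, 9.37 and 10.11, 3.54-fold higher (1.82, SE 0.191, adjusted p = 0.000201). In both genes high-fat replicate 2 was the lowest of its group and still lay far above the standard diet. Fabp4, a fatty acid binding protein of fat cells and macrophages, was at 5.86, 5.78 and 5.74 against 6.62, 6.82 and 6.84, 1.96-fold higher. The fat cell list it belongs to had no other called member among 8, its mean level was 5.73 to 5.83 against 5.89 to 6.04, and Adipoq, the defining hormone of fat cells, was at 4.09 to 4.39 and 4.20 to 4.51; the part of fat cells in these values was not tested. Fabp5 (0.83) and the lipoprotein receptor Vldlr (0.61) were called as well. The call on Fabp5 held only without standard-diet replicate 2 (adjusted p up to 0.137), and that on Vldlr ended without each of the 6 control arrays (up to 0.14). Another probe set of Fabp5 gave 0.88 (limma adjusted p = 0.0117 over all probe sets). The member that fell was Dbi, which binds acyl-CoA (-0.56, SE 0.0982), named after its values were seen. Without any one control array 3 to 5 members of the list were called higher, and 3 after median centring.

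In storage, 2 of 20 lipid droplet genes rose and 2 fell, and 1 of 14 genes of triglyceride synthesis rose. Of all genes, 4.3% were called higher and 1.69% lower. Hsd17b11, a droplet-bound dehydrogenase, was at 11.80, 11.81 and 11.99 against 12.32, 12.38 and 12.34 (0.48, SE 0.0929, limma adjusted p = 0.00968). The droplet proteins Cidec (-0.71) and Plin5 (-0.54) were called lower and Fitm1, which helps droplets form, higher (0.81). These calls were fragile: that on Cidec held only without high-fat replicate 3 (adjusted p up to 0.145), that on Fitm1 only without high-fat replicate 2 (up to 0.109), and that on Plin5 without no single control array (up to 0.168). Mogat1, an acyltransferase of triglyceride synthesis, was at 5.79, 6.12 and 5.98 against 7.17, 6.41 and 7.57 (1.09, SE 0.222, adjusted p = 0.013); the call ended without standard-diet replicate 1 (0.0547) or high-fat replicate 1 (0.0581). Lpin1, a phosphatidate phosphatase, scattered widely: 11.33, 11.45 and 11.95 against 8.27, 10.83 and 10.50, with high-fat replicate 1 far below the rest, and it was not called (-1.71, SE 0.771, adjusted p = 0.202; named after its values were seen). Apolipoprotein and lipoprotein assembly genes had 1 member up and 2 down of 17, and the falls of Apom (-0.42) and Apoa5 (-0.35) held only without high-fat replicate 2 (Apom, adjusted p up to 0.0934) or without that array or standard-diet replicate 1 (Apoa5, up to 0.0958).

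Genes that answer to the fasting receptor PPAR-alpha, and those set by fasting and insulin, stayed mostly uncalled in these mice, all of which were fasted. Over all genes 4.3% were called higher and 1.69% lower. Of 33 measured PPAR-alpha genes 2 rose and 2 fell (median -0.03): Cd36 and the fatty aldehyde dehydrogenase Aldh3a2 (0.52, SE 0.0979, limma adjusted p = 0.00841) were higher, and Cidec and the acetyltransferase Crat (-0.31, call ended without each of the 6 control arrays, adjusted p up to 0.143) were lower. Of 24 fasting and insulin genes 0 were called (median -0.06). Their smallest p belonged to Pdk2 (0.37, adjusted p = 0.0765) and Pdk4 (-0.96, adjusted p = 0.104), kinases that restrain pyruvate oxidation. Pdk4 was at 8.80, 8.57 and 8.97 against 8.13, 7.96 and 7.37, so its groups did not overlap although it was not called. Pck1, the key enzyme of glucose production, stood at -0.07.

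Steroid and bile acid genes held some of the largest changes in both directions. Cyp17a1 was at 10.70, 10.28 and 9.83 on the standard diet and 7.33, 8.05 and 7.29 on the high-fat diet (-2.71, SE 0.356, limma adjusted p = 0.00106). Cyp39a1, an oxysterol hydroxylase of bile acid synthesis, was at 8.75, 8.65 and 8.02 against 6.94, 6.87 and 6.65, 3.14-fold lower (-1.65, SE 0.24, adjusted p = 0.00232). Cyp2c70, which makes the muricholic acids of mice, was at 9.40, 10.52 and 9.75 against 11.92, 12.23 and 11.10, 3.63-fold higher (1.86, SE 0.375, adjusted p = 0.0123). For Cyp17a1 and Cyp39a1 the gap between the groups exceeded the range within either, while for Cyp2c70 the nearest arrays of the 2 diets were 0.58 apart and the call ended without standard-diet replicate 1 (0.0553) or 3 (0.051) or high-fat replicate 1 (0.0538). Cyp7a1, the rate-limiting enzyme of bile acid synthesis, was not called: it stood at 12.30, 12.14 and 10.68 against 12.42, 11.87 and 12.11 (0.43, SE 0.333). Over the 17 bile acid synthesis genes 1 rose and 2 fell, the other being Baat, which conjugates bile acids (-0.40, held only without high-fat replicate 2, adjusted p up to 0.116). The shares called over all genes were 4.3% higher and 1.69% lower. Hsd3b3, a hydroxysteroid dehydrogenase, was at 8.31, 8.55 and 8.92 against 9.89, 9.97 and 10.15, 2.65-fold higher.

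Of 13 transporters of bile acids and organic anions 2 rose and 1 fell. Over all genes 4.3% were called higher and 1.69% lower. Slco1a4, an uptake carrier, was at 11.36, 10.98 and 10.99 against 9.68, 9.96 and 10.17, 2.25-fold lower (-1.17, SE 0.227); without high-fat replicate 1 it was -1.04 with an adjusted p of 0.0528. The exporters Abcc3 and Abcc6 were called at 0.33 and 0.42; Abcc3 lost its call without standard-diet replicate 1 (0.0503) or 2 (0.0709) or high-fat replicate 1 (0.0674), and Abcc6 held only without high-fat replicate 3 (adjusted p up to 0.0887). Of 29 cytochromes of families 2 and 3, which oxidise lipids and foreign compounds, 5 rose, 3 after median centring, and 2 fell (median 0.17). Cyp2c23 (0.81, SE 0.0876, adjusted p = 0.000232) and Cyp2j6 (0.64, SE 0.109, adjusted p = 0.00557), which oxidise arachidonic acid, rose, and Cyp2b13 fell (-0.63, SE 0.0955, adjusted p = 0.00289). Cyp2b10, the classic target of the xenobiotic receptor CAR, was at 9.28, 8.65 and 8.51 against 7.81, 7.18 and 7.75 (-1.23, SE 0.337, adjusted p = 0.0459), and this call ended without each of the 6 control arrays (up to 0.158). Members of the Cyp2b, Cyp2c, Hsd3b and Slco1a families are near copies of each other, so part of a signal may come from a related gene. In conjugation, 3 of 35 genes rose and 0 fell: the methyltransferase Inmt, Ugt3a1 (0.60) and Sult1c2 (0.65). Ugt3a1 lost its call without standard-diet replicate 1 (0.0616) or 2 (0.0644) or high-fat replicate 1 (0.0603), and Sult1c2 held only without standard-diet or high-fat replicate 3 (adjusted p up to 0.123). Inmt was at 10.50, 10.37 and 10.87 against 12.45, 12.55 and 12.48, 3.77-fold higher (1.92, SE 0.131, adjusted p = 2.89e-06). Male-biased liver genes had 0 of 22 members called, and female-biased ones 4 up (Hao2, Ntrk2, Rtn4 and Vldlr) and 5 down (Cyp17a1, Cyp39a1, Cyp2b10, Slco1a4 and Cyp2b13) of 27. The 4 higher calls numbered 0 or 1 without any one control array and 1 under each of the 3 other scalings, and the 5 lower ones 3 or 4 and 4 or 5.

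Among 19 measured clock genes 5 rose and 1 fell, against 4.3% and 1.69% of all genes. The activator Arntl fell, and Dbp, Bhlhe41, Per3, Tef and Cry2 rose. Groups did not overlap for 9 higher and 2 lower members, against 19.4% and 10.9% of all genes, so the lower count is near the background. Arntl was at 8.02, 8.17 and 8.00 against 7.54, 7.01 and 6.52, 2.06-fold lower (-1.04, SE 0.201, limma adjusted p = 0.00948). Dbp, an output factor of the clock, was at 7.63, 7.47 and 7.86 against 8.82, 9.21 and 9.98, 3.21-fold higher (1.68, SE 0.322, adjusted p = 0.00926). Both genes were graded alike across the high-fat arrays: replicate 3 was farthest from the standard diet and replicate 1 nearest. Bhlhe41, a repressor in the loop, was at 5.34, 5.38 and 5.29 against 6.52, 6.59 and 6.91, 2.52-fold higher (1.33, SE 0.107, adjusted p = 1.55e-05). The repressor Cry2 was at 7.99, 8.08 and 8.00 against 8.66, 8.56 and 8.47 (0.54, SE 0.0998, adjusted p = 0.00726; named after its values were seen). Per3, a period gene, was called at 0.90, and at 0.81 without standard-diet replicate 2 its adjusted p was 0.0597; the call on the output factor Tef (0.76) ended without each of the 6 control arrays (up to 0.126). Nr1d1, a repressor of Arntl, was not called, although its arrays did not overlap: 9.22, 9.39 and 10.12 against 10.91, 10.55 and 10.53 (1.09, SE 0.382, adjusted p = 0.106). Clock, the partner of Arntl, stood at -0.19 and Per1 at 0.03. The median of the list was 0.25 and was -0.02 without standard-diet replicate 2. In the list of clock output genes Wee1, a cell cycle kinase, rose (1.10) and Leo1, a transcription elongation factor, fell (-0.46); Wee1 lost its call without each of the 6 control arrays (up to 0.115), and Leo1 held only without standard-diet replicate 3 or high-fat replicate 2 (up to 0.0717). The labels give no time of killing, and its part in these values was not tested.

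**Figure D3:**
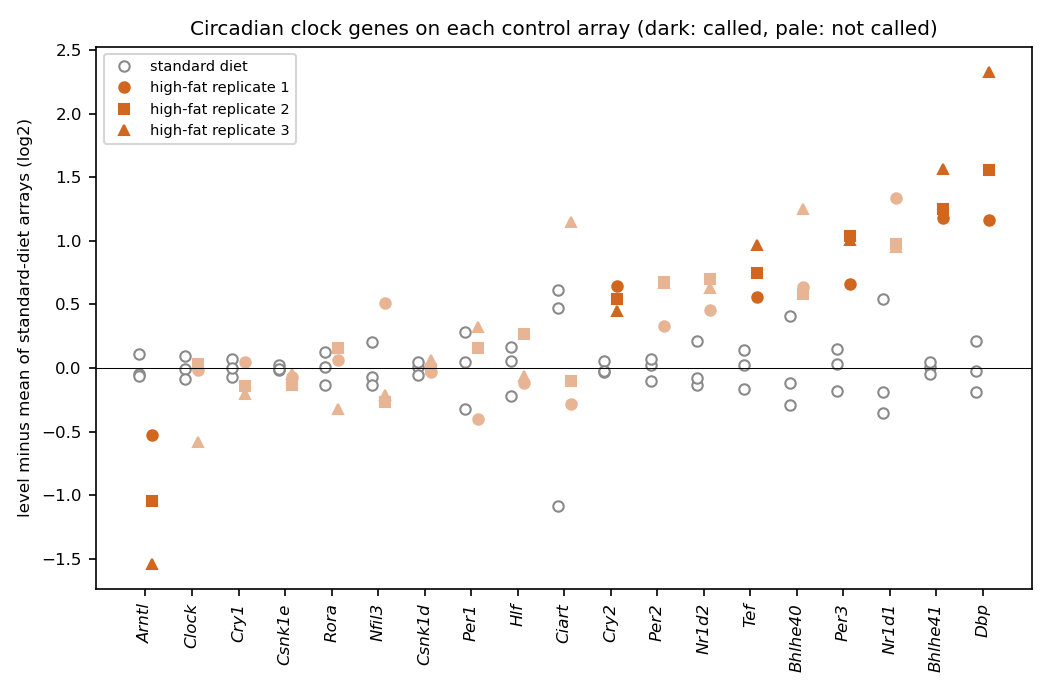
Level of each measured clock gene on every control array, as log2 difference from the mean of the 3 standard-diet arrays (y axis), with genes ordered by their diet difference (x axis); open circles are the standard diet, filled symbols the 3 high-fat arrays, and pale symbols were not called. Arntl lies below and Dbp and Bhlhe41 above all standard-diet arrays, with high-fat replicate 3 farthest out in each.

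Arntl and its partner bind the E-box CACGTG in the promoters of their targets. Among the 16 clock genes with a window of 200 bases, 5 held this motif (31.2%), which reads the same on both strands, against 7.16% of 15614 genes. Other lists ranged from 0% (29 conjugation genes, among others) to 33.3% (7 of 21 fasting and insulin genes, with 0 called), so this share is not particular to the clock. Called and not called clock genes held it in like shares, 2 of 6 and 3 of 10. The window of Bhlhe41, at chr6:145865421-145865620 on the minus strand of GRCm38.p6, is shown because this gene had the smallest p of the list; its E-box, in capitals, starts at position -153 from the RefSeq gene start.
Bhlhe41: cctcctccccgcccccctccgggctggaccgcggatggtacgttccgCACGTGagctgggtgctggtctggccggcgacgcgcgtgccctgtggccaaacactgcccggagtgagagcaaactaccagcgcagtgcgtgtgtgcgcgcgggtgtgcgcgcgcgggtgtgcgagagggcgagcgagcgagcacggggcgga

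Some enzymes of nitrogen disposal and of glycolysis were lower. Of 30 genes of the urea cycle and amino acid breakdown 5 fell and 0 rose (median -0.13). Among all genes 1.69% were called lower and 4.3% higher. After quantile normalization 3 were called lower and 2 higher, after cyclic loess 4 and 2, and after median centring 6 and 0; without any one control array 2 to 4 were called lower. Arg1, arginase, the last step of the urea cycle, was at 12.98, 12.77 and 12.87 against 12.18, 12.15 and 12.12, 1.65-fold lower (-0.72, SE 0.101, limma adjusted p = 0.00188). Asl, which makes arginine in the step before it, was at 12.56, 12.35 and 12.43 against 11.96, 11.75 and 11.82, 1.52-fold lower (-0.60, SE 0.104, adjusted p = 0.00573). The high-fat arrays of each lay within 0.22 of each other, below every standard-diet array. Got1, an aminotransferase, was called at -0.61 and held only without high-fat replicate 1 or 3 (adjusted p up to 0.0865); the calls on the methyltransferase Bhmt (-0.32) and the ornithine carrier Slc25a15 (-0.29) ended without each of the 6 control arrays (up to 0.103 and 0.138). Bhmt had other probe sets at -0.33 and 0.00267. Cps1 and Otc, the entry steps of the urea cycle, were not called (-0.09 and 0.18).

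Of 17 glycolytic genes 5 fell and 0 rose, while the median was 0.11, above 0. The shares called over all genes were 1.69% lower and 4.3% higher. The aldolases Aldoc (8.16, 7.86 and 7.78 against 7.34, 7.25 and 7.08; -0.71, SE 0.11, limma adjusted p = 0.00321) and Aldoa (10.81, 10.84 and 10.72 against 10.29, 10.16 and 10.30; -0.54, SE 0.0958, adjusted p = 0.00632) fell without overlap. Tpi1, the triose isomerase, was called at -0.42; its call ended without standard-diet replicate 1 (0.066) or 2 (0.064) or high-fat replicate 1 (0.0803). Those on Pgk1 (-0.30) and Ldha (-0.30) ended without each of the 6 control arrays (up to 0.132 and 0.161). Endoplasmic reticulum chaperones had 0 of 22 members called and a median of -0.16, with the chaperone Hspa5 at -0.32 (adjusted p = 0.178). Of the integrated stress response 1 of 23 was called, Vldlr, where 5.99% of all genes were called. Of 24 antioxidant genes 1 rose, Cbr3, a carbonyl reductase (0.54), and its call ended without standard-diet replicate 3 (0.0674) or high-fat replicate 3 (0.0517).

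Some immune genes were higher on the high-fat diet, and most of those described here were highest on high-fat replicate 3. Of 10 measured MHC class II genes, which present antigen, 4 rose and 0 fell (median 0.52), against 4.3% and 1.69% of all genes. The list mean was 7.52 to 7.75 on the standard diet and 8.02, 7.93 and 8.61 on high-fat replicates 1, 2 and 3. H2-Ab1, a chain of the class II molecule, was at 9.47, 8.93 and 9.54 against 10.16, 10.09 and 11.00 (1.10, SE 0.271, limma adjusted p = 0.0302). H2-Aa, its partner chain, was called at 0.81, H2-DMa, which loads peptides, at 0.69, and Ctss, a protease of the pathway, at 0.51. Without high-fat replicate 3 the median was 0.28, H2-DMa stood at 0.40 and Ctss at 0.31, and 0 members were called; all 4 calls held only without high-fat replicate 2, with adjusted p of up to 0.124, 0.193, 0.145 and 0.125. After quantile normalization or cyclic loess 1 class II gene was called, and after median centring 0, with medians of 0.44 to 0.54. In bulk liver more cells of a type and more RNA per cell cannot be told apart.

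In the interferon response 2 of 19 genes rose, against 4.3% of all genes. Ifit3 was at 5.55, 5.80 and 5.72 against 6.38, 6.17 and 6.48 (0.65, SE 0.109, limma adjusted p = 0.00475). Gbp3, a guanylate-binding protein, was called at 0.76, stood at 0.51 without high-fat replicate 3, and lost its call without standard-diet replicate 1 (0.0717) or 3 (0.072). Acute phase genes had 0 of 32 members up and 1 down, the fibrinogen chain Fga (-0.36), which held only without high-fat replicate 2 (adjusted p up to 0.148). A second probe set of Fga gave -0.70 (limma adjusted p = 0.0133 over all probe sets). Lcn2, a secreted acute phase protein, was at 6.93, 7.73 and 9.38 on the high-fat arrays against 6.63 to 7.09 and was not called (named after its values were seen).

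Among markers of other liver cells, B cell and T and NK cell lists had the largest shares of called members, against 4.3% of all genes called higher and 1.69% lower. Their array means did not overlap between the diets. Nor did those of the endothelial, stellate and matrix, bile duct, neutrophil and fat cell lists, all higher on the high-fat diet. The median over all genes was also higher on each high-fat control array, at 6.70 to 6.75 against 6.64 to 6.68. After median centring the list medians were 0.06 (endothelial), 0.03 (stellate and matrix), 0.08 (bile duct), 0.03 (neutrophil) and 0.05 (fat cell). They were then 0.21 for B cells and 0.13 for T and NK cells. Of 19 macrophage and Kupffer cell markers 1 rose, the Fc receptor Fcgr1 (6.09, 6.23 and 6.20 against 6.82, 6.66 and 7.52; 0.82, adjusted p = 0.0518 in limma without standard-diet replicate 1), and the list median of 0.09 was -0.05 without high-fat replicate 3. Of 18 stellate cell and matrix markers Vim rose (0.53) and Timp1 fell (-0.53); Vim stood at 0.31 without high-fat replicate 3 and held only without high-fat replicate 1 (up to 0.142), and Timp1 held only without high-fat replicate 3 (up to 0.129). Of 17 endothelial markers 2 rose, Emcn (0.44) and Stab2 (0.39), which ended without each of the 6 control arrays (up to 0.0827) and without all but high-fat replicate 3 (up to 0.14). T and NK cell markers had 4 of 18 up: Themis, Ncr1 (0.90), Klrb1c (0.74) and Cd3e (0.45). Ncr1 held only without standard-diet replicate 1 or high-fat replicate 2 (adjusted p up to 0.0881), and Klrb1c and Cd3e only without replicate 2 of either diet (up to 0.0917 and 0.0829). The list mean was 5.62 to 5.70 against 5.81 to 6.07. B cell markers had 3 of 10 up, Cd79a (0.57), Cd22 (0.50) and Jchain (0.49), and a mean of 5.29 to 5.37 against 5.59 to 5.63. Cd79a held only without standard-diet replicate 3 or high-fat replicate 2 (up to 0.102), Cd22 only without high-fat replicate 2 or 3 (up to 0.0887), and Jchain only without high-fat replicate 1 (up to 0.115). Many markers of both lists are dim. With only genes of a mean level of at least 6 kept, 0 B cell and 1 T and NK cell markers were called. The B cell median was then 0.000334, against 0.29 with all members. Of 12 neutrophil markers the granule protein Ngp rose (4.53, 4.29 and 4.24 against 5.02, 5.20 and 5.47; 0.88, SE 0.13, adjusted p = 0.00264). Erythroid, muscle and pancreas lists had 0 calls.

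**Figure D4:**
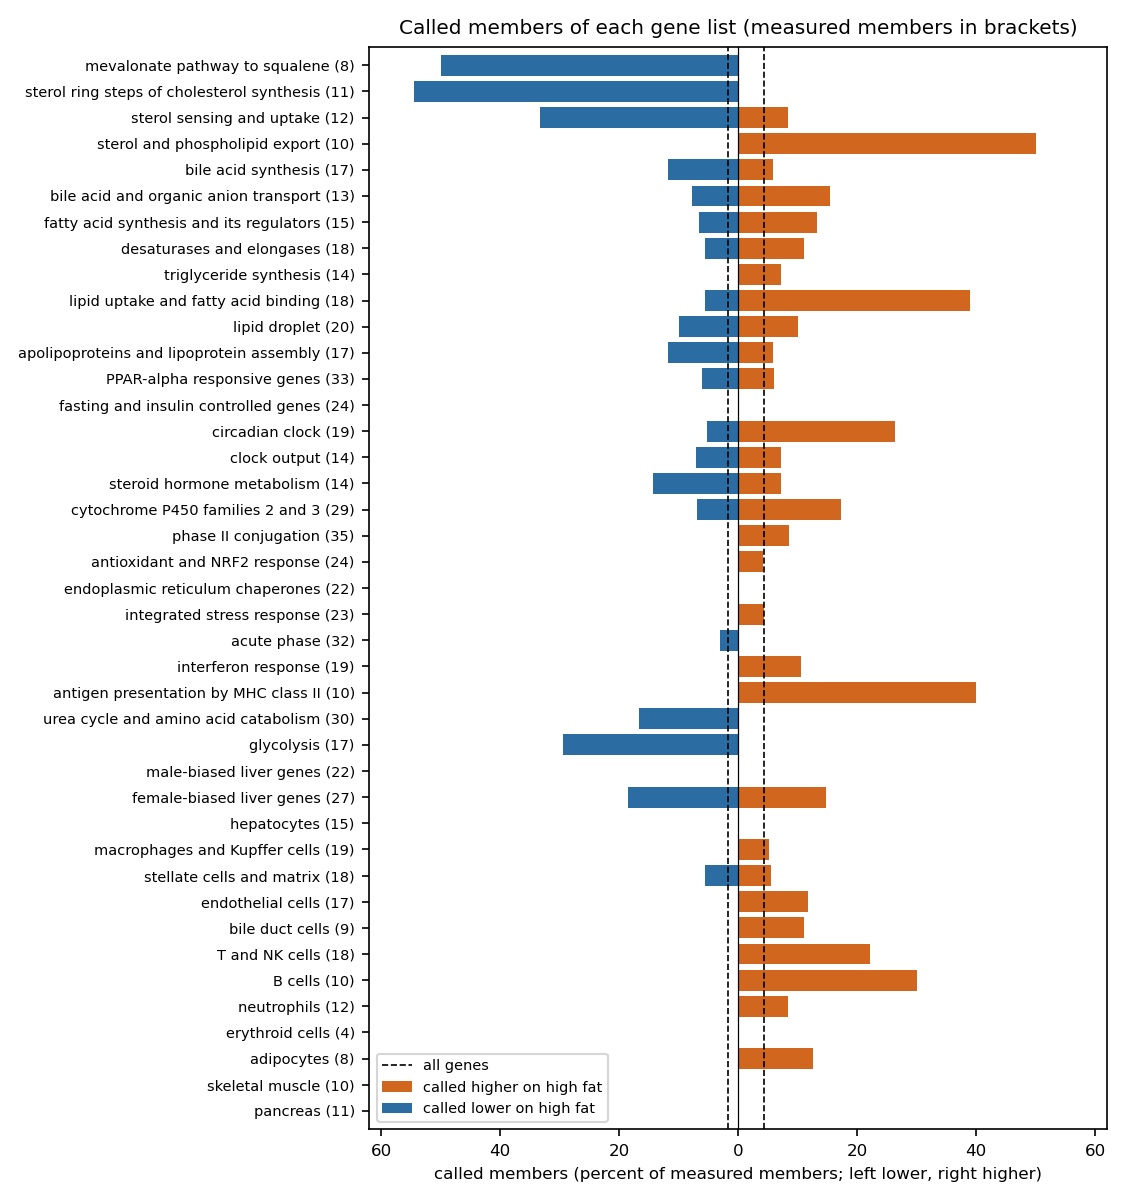
Percent of measured members (number in brackets) called higher (orange, right) and lower (blue, left) on the high-fat diet. Each gene list is drawn except that of the sex chromosome genes. Dashed lines mark all genes, 4.3% higher and 1.69% lower. The sterol ring steps (6 of 11) and the mevalonate steps (4 of 8) reach farthest to the left, and sterol export (5 of 10) and MHC class II (4 of 10) farthest to the right.

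Other large differences lay outside these pathways. Themis, a signalling protein of developing T cells, was at 4.83, 4.69 and 4.80 against 6.91, 6.32 and 6.52, 3.52-fold higher (1.81, SE 0.183, limma adjusted p = 0.000188); Cd3d, Cd4 and Cd8a of the same marker list were not called, at 0.15, -0.10 and -0.29. Adam11, a membrane protein best known from brain, was at 7.41, 7.60 and 7.47 against 8.97, 9.30 and 9.08, 3.08-fold higher (1.62, SE 0.105, adjusted p = 2.07e-06). Krt23, a keratin on the bile duct list, was at 6.37, 6.64 and 6.53 against 7.88, 7.63 and 8.25, 2.65-fold higher. The other 8 bile duct markers were not called, with Krt19 at 0.16, Epcam at 0.17 and Krt7 at -0.08. Ddah1, which breaks down inhibitors of nitric oxide synthase, was at 8.60, 8.50 and 8.75 against 9.92, 9.64 and 10.64, 2.73-fold higher. Ces1g, a lipid-hydrolysing carboxylesterase, was at 8.36, 8.29 and 8.65 against 9.72, 9.58 and 9.90, 2.46-fold higher. The zinc finger gene Zfp991 was 2.97-fold higher, at 5.60, 4.82 and 5.66 against 7.09, 6.89 and 6.81. Arrdc3, an arrestin-like protein, was at 9.39, 8.49 and 9.57 against 9.96, 10.66 and 11.01 (1.40, SE 0.341, adjusted p = 0.0297), and held only without standard-diet replicate 3 or high-fat replicate 1 (up to 0.124). Among the falls, Mup5, a major urinary protein, was at 7.27, 7.14 and 7.14 against 6.12, 6.19 and 5.86 (-1.12). The centromere protein Cenpu (5.06, 5.34 and 5.00 against 4.05, 4.05 and 4.27; -1.01) and the NK receptor ligand H60b (4.75, 4.83 and 4.87 against 3.76, 3.98 and 3.72; 2-fold lower) fell at low levels. Mup5, Ces1g, Zfp991 and H60b belong to families of related genes, so part of a signal may come from a near copy.

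**Figure D5:**
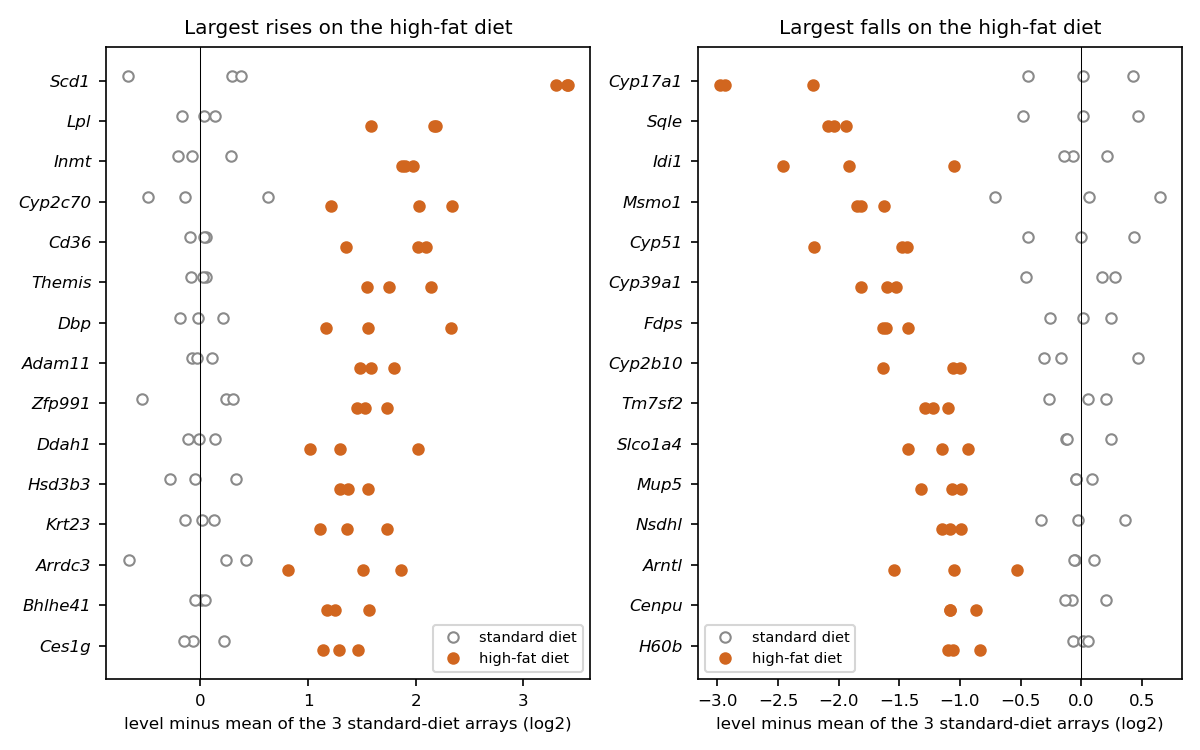
The 15 largest rises (left) and 15 largest falls (right) among called genes whose diet groups do not overlap; each point is 1 array, as log2 difference from the mean of the 3 standard-diet arrays, open for the standard diet and orange for the high-fat diet. Scd1 rises by over 3 on every high-fat array, while the diets lie close for Arrdc3, whose nearest arrays are at 9.57 and 9.96.

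The same diet comparison in knockout liver rests on other mice but on the same normalization runs. Of the 44 control genes with a difference of at least 1, 38 were called in the same direction in the knockout (all genes there: 5.11% called, 2.45% higher and 2.66% lower), and 43 had a difference of at least 0.5 in that direction. Sqle stood at -2.11 in the knockout, Cyp17a1 at -2.78, Cd36 at 1.96 and Themis at 1.84. Of the ring steps 8 of 11 fell in the knockout (median -1.07), and of the clock genes 7 rose and 1 fell (median 0.48). MHC class II genes had 0 of 10 called there (median 0.07), and chaperones of the endoplasmic reticulum 11 of 22 lower (median -0.42). When the diet effect was compared between the genotypes with limma, 0 genes passed the adjusted threshold and 944 had an unadjusted p under 0.05, so no gene or list above is shown to respond in control liver only. The widest gap among the named genes was that of Scd1, 1.85 in the knockout against 3.38 in the control (difference -1.52, SE 0.307, limma unadjusted p = 0.000187, adjusted p = 0.945).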

How the data were processed

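Liver RNA was hybridised to Affymetrix arrays, 12 in all, 3 per group of genotype and diet. The deposited values are log2 expression values that the authors computed by RMA; per the submitters' processing notes the software was Affymetrix Expression Console, and its version is not given in the sources used here. RMA corrects background, normalizes the arrays of a run to a common distribution and summarizes probe sets. Of 35557 probe sets, 21789 had 1 gene symbol, 1621 several and 12147 were not listed. For the 999 genes with several probe sets that with the highest mean was kept, leaving 19938 genes. The number of arrays limits the precision.

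Group means for the 4 groups were estimated together in limma 3.58.1 (R 4.3.3), using an intensity trend in the moderation and Benjamini-Hochberg adjustment over all genes; it was tested on simulated data. Named genes are the 15 largest called differences per direction whose groups do not overlap (2 falls were left out by name), and per list up to 5 called members, or the 2 with the smallest p; genes named outside this rule were chosen after their values were seen. The 30 pathway and 12 cell type lists, of which 658 of 745 genes were measured, and the members were chosen with earlier results of these data known. Alternatives were other scalings, moderation settings, thresholds, filters, a replicate block, a variance for the offset between diets and leaving out each control array. Promoters come from RefSeq (GRCm38.p6). Figures were drawn with matplotlib 3.10.9.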

Additional observations from a re-analysis of the deposited data

How the results depend on the processing

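The count of 1194 calls was 3119 with array weights, 480 for genes with a mean level of at least 6, 274 at an adjusted p under 0.01, 11 when tested against a minimum difference of 0.5 (limma treat) and 7 with a variance for the offset between diets. Leaving out 1 control array gave 389 to 838 calls. The 44 calls of at least 1 became 11 against a minimum difference of 0.5 and 7 with the offset variance. The 7 were Scd1, Inmt, Lpl, Cd36, Themis, Adam11 and Cyp17a1, and against a minimum difference Fdps, Tm7sf2, Bhlhe41 and Nhlh1 were added to them. The offset SD of 0.214 came from dim receptor genes and was given to every gene. Under the remaining settings the 44 calls numbered 33 to 54. Median centring gave 425 higher and 618 lower calls, quantile normalization 647 and 576, and cyclic loess 707 and 607. The interaction had 0 calls under every setting fitted; the fit of the 6 control arrays alone cannot give it.

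The labels do not say whether replicate numbers pair the samples. The deviations of same-numbered control arrays from their group means correlated at 0.0945, -0.0967 and -0.0808, which with 3 arrays per group cannot decide it. With the replicate number as a block 1158 genes were called, 45 of them by at least 1. Of 100 named and called genes 45 kept their call without every single control array, and none of the 100 changed direction under a setting fitted. The arrays number 3 per group, and a level near 4 is close to the floor of the scale, so small differences of dim genes are not resolved.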
